A study of Mus musculus with 6 samples.

Results

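The 9 genes described here encode transcription factors of the macrophage lineage, namely Spi1, Runx1, Cebpa, Cebpb, Maf, Mef2c, Zeb2, Nr1h3 and Tfec. They were picked by gene symbol from the 26110 genes that the deposited expression table lists, and all 9 were found. Bulk RNA-seq had been performed on MHCII hi cells sorted from the muscularis externa (ME), the muscle coat of the small bowel wall, with 3 CX3CR1- libraries and 3 CX3CR1+ libraries. Both populations came from naive, untreated mice of the genotype CX3CR1+/GFP, in which GFP replaces one allele of Cx3cr1, the fractalkine receptor gene, and serves as the sorting signal. The ME of several mice was pooled for the sort, and whether each library had a pool of its own is not stated. The p-values therefore measure only the spread between these libraries. The sample labels call the cells of both populations dendritic cells, whereas the study treats them as macrophages.

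Macrophages arise from myeloid progenitors or from embryonic precursors under the control of a small set of transcription factors that act together on shared enhancers. PU.1 and RUNX1 open the myeloid programme, and the C/EBP factors drive the granulocyte and monocyte branch. c-Maf, MEF2C, ZEB2, LXRα and TFEC also act later, in maturing or tissue-resident cells. In the intestinal muscle coat, resident macrophages lie close to enteric neurons and carry high MHCII, and many carry CX3CR1. From IBA-1 staining and their position near enteric neurons, the study takes the MHCII hi CX3CR1- cells as resident macrophages too. In its flow cytometry, most of these cells carried CD11b, and very few carried CD11c or CD103, a dendritic cell marker.

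RNA of 7 of the 9 factors was lower in CX3CR1- cells than in CX3CR1+ cells, by 2.002-fold (Zeb2) to 4.80-fold (Mef2c). None was called higher. A gene was called when its difference was at least 2-fold and its adjusted p at most 0.05 in limma, with adjustment over all 17812 tested genes. Of all tested genes, 8.15% were called lower in CX3CR1- cells and 12.2% higher (20.4% in either direction). By the adjusted p alone the same 7 factors were lower and 0 higher, against 11.0% and 13.3% of all tested genes. The 3 CX3CR1- values lay below the 3 CX3CR1+ values for the same 7 factors, an arrangement found in 19.8% of all tested genes, and above them for Nr1h3, as in 20.3% of tested genes. The median log2 fold change of CX3CR1- over CX3CR1+ was -1.84 over the 9 factors and -0.0035 over all tested genes. In sorted bulk samples, fewer cells that express a gene and less RNA per cell cannot be told apart.

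**Figure D1:**
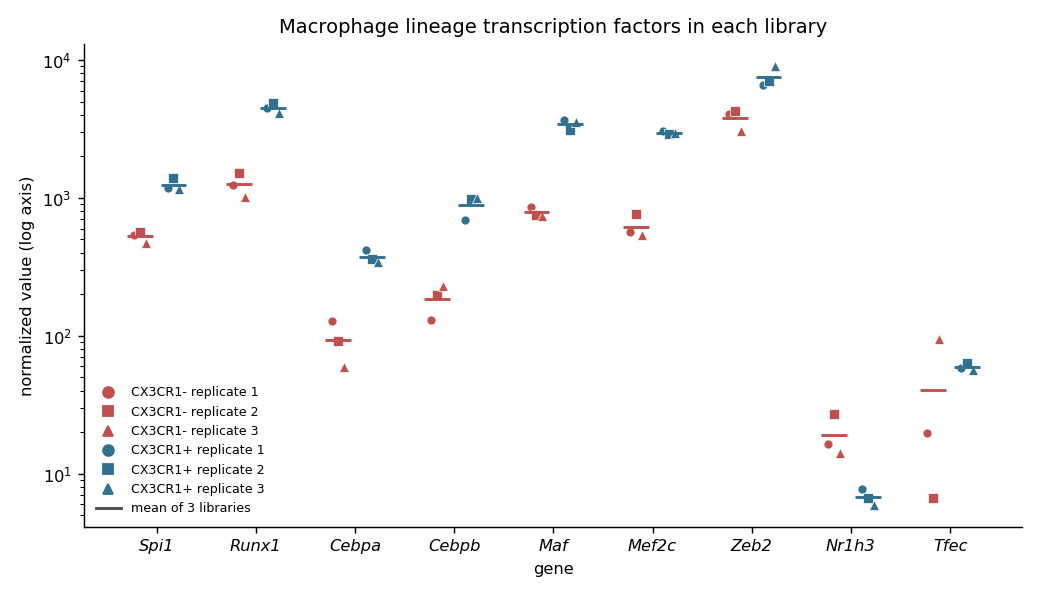
Normalized value (log axis) of each of the 9 factors in each of the 6 libraries. Symbols are single libraries and bars are means of 3. The 3 CX3CR1- libraries (red) lie below the 3 CX3CR1+ libraries (blue) for Spi1, Runx1, Cebpa, Cebpb, Maf, Mef2c and Zeb2, above them for Nr1h3, and on both sides of them for Tfec.

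The libraries held about 5346379 to 17616758 reads assigned to genes, with overlapping depths in both populations. A normalized value of 1.39 to 5.36 corresponded to 3 reads, and every value of the 9 factors lay above that level in its library. Cx3cr1 itself was 23.6 ± 4.80 (SD, n = 3) in CX3CR1- cells and 366 ± 17.5 in CX3CR1+ cells, in the direction of the sort labels. Mitochondrial genes took 47.5 to 54.9% of the normalized total in CX3CR1- libraries and 18.1 to 21.2% in CX3CR1+ libraries. All 8 macrophage markers (among them Csf1r, Adgre1 and Mertk) were lower in CX3CR1- cells, with summed levels of 4124 to 4895 against 21735 to 23474, and none was absent. Cx3cr1 is 1 of these 8 and is part of the sums, and its direction was set by the sort. Aif1, the gene of IBA-1, is another, at 275 ± 22.8 against 1377 ± 144 (SD, n = 3). All 8 conventional dendritic cell markers were higher, at 3563 to 4047 against 211 to 281. Markers of other cells were also higher in CX3CR1- libraries, with 8 of 8 for epithelium (15822 to 27106 against 20.3 to 47.2), 5 of 5 for fibroblasts (3615 to 10813 against 149 to 284) and 6 of 7 for B and plasma cells (1703 to 3942 against 68.7 to 97.3). The same held for 4 of 5 endothelial, 3 of 7 neuronal, glial or interstitial and 0 of 5 smooth muscle markers. Among tested markers it held for 2 of 3 of monocytes, 2 of 3 of T and NK cells and 1 of 2 of granulocytes. The rest of these last lists were not listed or had a mean under 10, and were not tested. The epithelial markers Epcam, Krt20, Krt8 and Alpi and the plasma cell marker Mzb1 were at or under 3 reads in all CX3CR1+ libraries. Of 10 genes shared by all leukocytes, 1 (Vav1) was lower and the other 9 were not called, with sums of 12094 to 17861 against 17910 to 18767. These markers moved with the populations, and their part in the results below was not tested.

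PU.1, the product of Spi1 (chr2:91082390-91115756, plus strand, GRCm38), is the ETS family factor on which myeloid development depends. Its normalized values were 541, 569 and 468 in CX3CR1- replicates 1, 2 and 3 and 1175, 1391 and 1162 in CX3CR1+ replicates 1, 2 and 3. Every CX3CR1- library lay below every CX3CR1+ library, and the spread was similar in both. The means were 526 ± 52.1 and 1243 ± 129 (SD, n = 3), a log2 fold change of -1.24 (SE 0.17, adjusted p = 5.21e-04 with limma). All log2 fold changes are on the scale of log2(value + 1).

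RUNX1, a Runt domain factor of early haematopoiesis that also acts on the Spi1 locus, is encoded by Runx1 (chr16:92601466-92826149, minus strand). Its values were 1251, 1526 and 1016 in CX3CR1- libraries and 4454, 4903 and 4119 in CX3CR1+ libraries. The groups were far apart, at 1264 ± 255 and 4492 ± 394 (SD, n = 3), and the CX3CR1- mean was 28.1% of the CX3CR1+ mean. The log2 fold change was -1.84 (SE 0.18, adjusted p = 5.05e-05).

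Both C/EBP members were lower in CX3CR1- cells. C/EBPα directs progenitors to granulocytes and monocytes, and its gene Cebpa (chr7:35119293-35121928, plus strand) had values of 129, 92.6 and 59.0 in CX3CR1- libraries and 416, 363 and 341 in CX3CR1+ libraries. The groups did not overlap, and the coefficient of variation was 37.4% in CX3CR1- and 10.3% in CX3CR1+ cells. Cebpa differed by a log2 fold change of -2.05 (SE 0.30, adjusted p = 6.75e-04). C/EBPβ serves monocyte survival and inflammatory genes, and its gene Cebpb (chr2:167688915-167690418, plus strand) had values of 129, 197 and 231 against 688, 988 and 993. Its means were 186 ± 51.8 and 889.6 ± 174 (SD, n = 3) without overlap, a log2 fold change of -2.27 (SE 0.26, adjusted p = 1.58e-04). In each population, the library with the highest Cebpa (replicate 1) had the lowest Cebpb.

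c-Maf is a basic leucine zipper factor that limits macrophage self-renewal and drives Il10. Its gene Maf (chr8:115682942-115707794, minus strand) had values of 864, 755 and 736 in CX3CR1- libraries and 3665, 3101 and 3578 in CX3CR1+ libraries. The libraries of each population stayed close together, at 785 ± 69.0 and 3448 ± 304 (SD, n = 3). This 4.39-fold difference had the smallest adjusted p of the 9 factors (log2 fold change -2.13, SE 0.15, adjusted p = 9.82e-06).

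MEF2C, a MADS box factor of myeloid and lymphoid cell fate that is also prominent in microglia, is encoded by Mef2c (chr13:83504034-83667080, plus strand). Its values were 566, 759 and 537 in CX3CR1- libraries and 3053, 2923 and 2957 in CX3CR1+ libraries. The CX3CR1+ libraries differed by a coefficient of variation of 2.27%, the smallest of the 9 factors in either population, against 19.5% in CX3CR1- cells. The difference was 4.80-fold (log2 fold change -2.28, SE 0.17, adjusted p = 1.35e-05).

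ZEB2, a zinc finger repressor that maintains the identity of tissue macrophages, is encoded by Zeb2 (chr2:44983632-45117395, minus strand). Its values were 4069.6, 4248 and 3041 in CX3CR1- libraries and 6582, 7090.0 and 9063 in CX3CR1+ libraries. They were the highest normalized values of the 9 factors in every library and did not overlap between the groups. With a log2 fold change of -1.003 (SE 0.18, 95% interval -1.40 to -0.61, adjusted p = 0.00236), Zeb2 lay at the 2-fold limit. Without CX3CR1- replicate 3 its log2 fold change was -0.85 (adjusted p = 0.0105), and without CX3CR1+ replicate 3 it was -0.87 (adjusted p = 0.0127), so that the fold limit was missed in both cases.

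LXRα, a nuclear receptor for oxysterols that governs cholesterol efflux and marks Kupffer cells and some splenic macrophages, is encoded by Nr1h3 (chr2:91184061-91202834, minus strand). Its values were 16.5, 27.2 and 14.1 in CX3CR1- libraries and 7.78, 6.64 and 5.96 in CX3CR1+ libraries, about 14 to 16 reads against 4 to 17. It was the one factor with every CX3CR1- library above every CX3CR1+ library, at 19.3 ± 6.94 and 6.79 ± 0.921 (SD, n = 3). The difference was not called (log2 fold change 1.33, SE 0.55, 95% interval 0.10 to 2.57, adjusted p = 0.113). It was called where the variance prior of limma had no intensity trend (adjusted p = 0.0259).

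TFEC, a factor of the MITF family whose expression among blood cells is largely that of macrophages, is encoded by Tfec (chr6:16833373-16898441, minus strand). Its values were 19.6, 6.66 and 95.2 in CX3CR1- libraries and 58.8, 63.8 and 56.8 in CX3CR1+ libraries. The CX3CR1+ libraries were alike, whereas CX3CR1- replicate 3 lay above all of them and the other two CX3CR1- libraries lay below. The log2 fold change was -1.29 (SE 0.74, 95% interval -2.95 to 0.36, adjusted p = 0.248). Without CX3CR1- replicate 3 it was -2.27 and was called (adjusted p = 0.0143), and without CX3CR1- replicate 2 it was -0.45 (adjusted p = 0.625). CX3CR1- replicate 3 also held the highest summed fibroblast markers, 10813 against 3615 and 6476 in the other CX3CR1- libraries. Its neuronal, glial or interstitial sum was the highest too, 997 against 276 and 942. Its leukocyte, monocyte, epithelial and granulocyte sums were the lowest of the CX3CR1- libraries, at 12094, 1321, 15822 and 61.4. These sums were chosen for mention after their values were seen. The part of any of these cells in the Tfec value of that library was not tested.

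The call depended on scaling for Zeb2 and Spi1. Scaling the libraries to the 10 leukocyte genes raised the median log2 fold change of all tested genes by 0.23, and quantile normalization shifted it by -0.14. With leukocyte scaling, Zeb2 was at -0.77 (adjusted p = 0.00903) and Spi1 at -1.01, and 6 factors were called lower. Quantile normalization gave -0.42 for Zeb2 (adjusted p = 0.0956) and -0.96 for Spi1 (adjusted p = 0.00242), and 5 factors were called lower. Runx1, Cebpa, Cebpb, Maf and Mef2c were called in each of 16 alternatives, at log2 fold changes of -1.44 or lower. The sign of all 9 factors was the same under the 3 scalings.

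**Figure D2:**
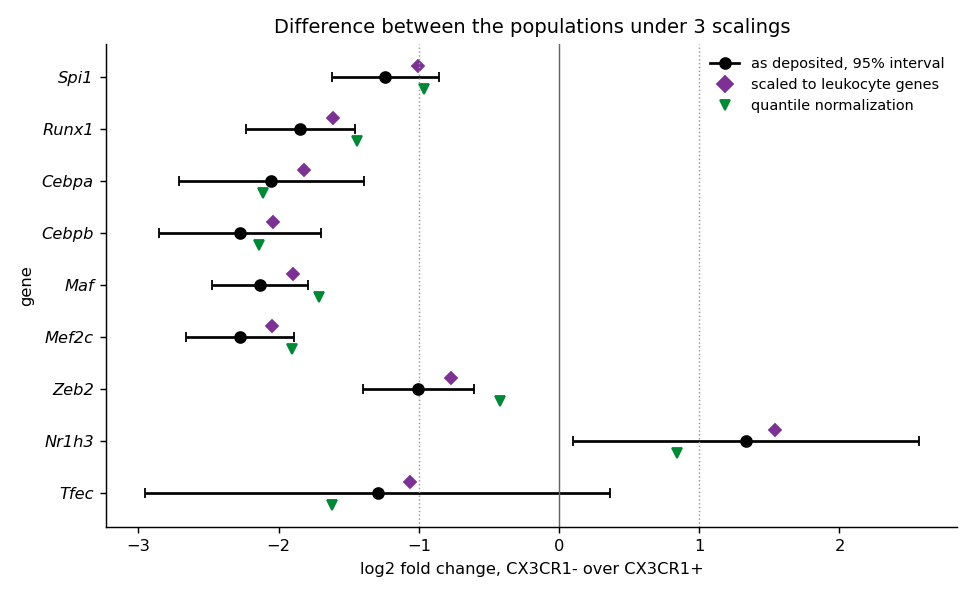
Log2 fold change of CX3CR1- over CX3CR1+ cells for each of the 9 factors. Circles with bars give the limma estimate on the deposited values with its 95% interval, diamonds the estimate scaled to 10 leukocyte genes and triangles that after quantile normalization, and dotted lines mark 2-fold. Runx1, Cebpa, Cebpb, Maf and Mef2c lie below -1 under all 3 scalings, Zeb2 is at -1.003, -0.77 and -0.42, and the interval of Tfec includes 0.

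The library kit does not mark the strand, so reads of a factor and of an overlapping antisense gene cannot be told apart. Cebpb shared 19.6% of its 31-base words with other genes, nearly all with Tmem189 on the opposite strand, which was itself lower in CX3CR1- cells (188 ± 20.7 against 448 ± 125, SD, n = 3, log2 fold change -1.22). Maf shared 5.38%, mainly with Gm15655 (22.1 ± 28.1 against 213 ± 58.1), and Zeb2 shared 3.28%, mainly with Zeb2os (38.6 ± 29.6 against 202 ± 48.5). The share was under 1% for the other 6 factors.

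Promoter sequence was inspected because several factors of this network are known to act on one another's genes. RefSeq windows (GRCm38.p6) from 250 bases before to 50 after an annotated start were at hand for 7 factors with 14 starts, and Maf and Spi1 had none. The ETS core GAGGAA, searched on both strands, was found in 9 of the 14 windows, all 4 of Zeb2, 2 of 3 of Mef2c, 1 of 2 of Runx1, the one of Tfec and 1 of 2 of Nr1h3. Of all 32851 promoter windows, 28.3% held it. Windows 2 and 3 of Zeb2 overlap and share their match. For Zeb2, Mef2c and Runx1, all lower in CX3CR1- cells, 1 stretch each is shown, at the first start whose window holds the core upstream, with the core in capitals. For Runx1 the capitals are the core on the opposite strand.
Zeb2, chr2:45117528-45117587, minus strand: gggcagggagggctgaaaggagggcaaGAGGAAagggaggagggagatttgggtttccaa
Mef2c, chr13:83503885-83503944, plus strand: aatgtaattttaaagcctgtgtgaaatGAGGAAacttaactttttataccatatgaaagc
Runx1, chr16:92697343-92697402, minus strand: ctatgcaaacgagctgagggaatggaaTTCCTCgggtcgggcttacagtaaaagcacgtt

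The core begins 118 bases before the first start of Zeb2, 122 before the first of Mef2c and 46 before the second of Runx1. The RUNX word TGTGGT, present in 16.8% of all windows, was found at 2 places in the first window of Runx1 and at 1 in Tfec. The ZEB word CACCTG (20.2% of windows) lay in 1 window each of Runx1 and Nr1h3, the M-box words CACGTG or CATGTG (20.4%) in the first of Runx1, the C/EBP word TTGCNNAA (10.8%) in the first of Zeb2 and the MARE word TGCTGA (19.5%) in the third of Mef2c. A MEF2 site and a DR4 site of LXR were in none of the 14 windows and in 0.110% and 0.0152% of all. None of these words was in the windows of Cebpa and Cebpb, whose GC content was 67.3% and 80.7%. A match is a run of letters and does not show binding.

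Per kilobase of mean coding transcript, Zeb2 had the highest level in both populations, with 3022 ± 523 normalized units per kb (SD, n = 3) in the CX3CR1+ and 1509.9 ± 259.9 in the CX3CR1- population. In CX3CR1+ cells it was followed by Runx1 (1647 ± 144), Mef2c (1365 ± 30.9), Spi1 (1251 ± 129.9), Maf (720 ± 63.4), Cebpb (591 ± 116), Cebpa (156 ± 16.1), Tfec (50.7 ± 3.04) and Nr1h3 (3.79 ± 0.514). Mef2c and Spi1 did not differ beyond their spread, and neither did Maf and Cebpb. In CX3CR1- cells Spi1 came second at 529 ± 52.5 per kb, ahead of Runx1 at 464 ± 93.7 and Mef2c at 285 ± 55.5, and Spi1 and Runx1 lay within their spread. Maf (164 ± 14.4), Cebpb (124 ± 34.5), Cebpa (39.1 ± 14.6), Tfec (34.3 ± 40.5) and Nr1h3 (10.8 ± 3.87) followed, and of these neighbours only Cebpb and Cebpa had ranges apart. The order of the upper 6 changed with the length used, and with merged exons Cebpb led in CX3CR1+ cells and Spi1 in CX3CR1- cells. Cebpa, Tfec and Nr1h3 held the last 3 places with each length.

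Most factors have a close relative, and the ratio of both was taken within each library on the deposited values. The log2 ratio of Mef2c to Mef2a was -0.54 ± 0.21 in CX3CR1- libraries and -0.41 ± 0.18 in CX3CR1+ libraries (SD, n = 3; exact permutation p = 0.5), with Mef2a at a log2 fold change of -2.15.

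Spi1 exceeded Spib, the PU.1 relative of B cells and plasmacytoid dendritic cells, 6.02-fold in CX3CR1- cells and 80.3-fold in CX3CR1+ cells. The log2 ratios were 2.61, 2.28 and 2.88 in CX3CR1- libraries and 6.26, 6.32 and 6.40 in CX3CR1+ libraries, a difference of -3.74 without overlap. Spib was higher in CX3CR1- cells, at 88.9 ± 26.7 against 14.5 ± 1.83 (SD, n = 3). Those libraries also had the higher B cell, dendritic cell and epithelial markers given above. The part of these cells in the Spib values was not tested.

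Zeb2 exceeded its counterpart Zeb1 7.03-fold in CX3CR1- and 29.4-fold in CX3CR1+ cells, a log2 difference of -2.07. Both genes moved, with Zeb2 lower in CX3CR1- cells (log2 fold change -1.003). Zeb1, a driver of mesenchymal gene expression, was higher (1.06, at 535 ± 62.5 against 255 ± 30.5, SD, n = 3). Runx1 exceeded Runx3 4.39-fold and 10.7-fold, a log2 difference of -1.28. The log2 ratio of Nr1h3 to Nr1h2, which encodes LXRβ, was -3.06 in CX3CR1- and -4.15 in CX3CR1+ cells. These 4 ratios did not overlap between the populations, and each had an exact permutation p of 0.1, the smallest that 3 libraries against 3 allow (0.2 after adjustment over 8 ratios). Cebpa to Cebpb (difference 0.22, exact permutation p = 0.8) changed sign without CX3CR1- replicate 1, to -0.28. Tfec to Mitf (difference 0.39, exact permutation p = 0.9) changed sign without CX3CR1- replicate 3, to -0.64.

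**Figure D3:**
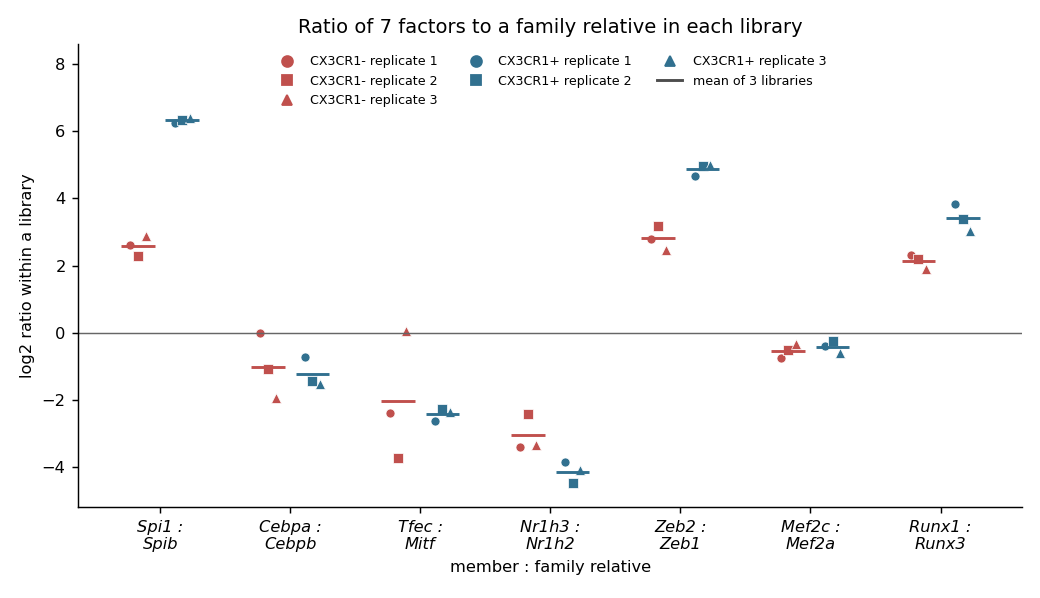
Log2 ratio of 7 of the factors to a family relative within each library. Symbols are single libraries and bars are means of 3. The populations are apart for Spi1 to Spib (means 2.59 and 6.33), Zeb2 to Zeb1 (2.81 and 4.88), Runx1 to Runx3 (2.13 and 3.42) and Nr1h3 to Nr1h2 (-3.06 and -4.15), and they overlap for Cebpa to Cebpb, Tfec to Mitf and Mef2c to Mef2a.

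Of 19 tested relatives of the 9 factors, 7 were lower in CX3CR1- cells and 2 higher, against 8.15% and 12.2% of all tested genes. The median log2 fold change of the relatives was -0.47. Mef2a (-2.15) and Mitf (-1.69), the factor that gave the TFEC family its name, were among those that were lower, and Spib (2.50) and Zeb1 (1.06) were the 2 that were higher. The number of higher relatives was 1 without CX3CR1- replicate 1 and 1 without CX3CR1+ replicate 2. RXRα (Rxra, -0.08, adjusted p = 0.823), the partner of LXR, and CBFβ (Cbfb, -0.16, adjusted p = 0.62), the partner of RUNX1, were not called.

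Other regulators of monocytes and macrophages went both ways, with 3 lower and 4 higher of 18 tested and a median of -0.17. Of all tested genes, 8.15% were lower and 12.2% higher. The stress factor gene Atf3 (-2.02), Nfe2l2 (-1.61), which encodes the antioxidant factor NRF2, and Bhlhe41 (-2.17) were lower in CX3CR1- cells. Gata6, a factor of peritoneal macrophages, was at 64.7, 51.9 and 49.9 in CX3CR1- libraries and at or under 3 reads in all CX3CR1+ libraries. That was at least 20.6-fold higher against the mean value of 3 reads. The epithelial markers Epcam, Krt20, Krt8 and Alpi were also at or under 3 reads in all CX3CR1+ libraries. The part of epithelium in the Gata6 values was not tested. Klf4, which acts in monocytes and in epithelium, was higher at the 2-fold limit (1.005, adjusted p = 0.00151), as was Klf2 (1.24). Irf8, needed for monocytes and dendritic cells alike, was not called (-0.22, adjusted p = 0.382).

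Among 10 regulators of dendritic cells, 3 were higher and 1 was lower, against 12.2% and 8.15% of all tested genes, with a median of -0.01. Zbtb46, the factor that marks conventional dendritic cells, had values of 306, 369 and 323 in CX3CR1- libraries and 43.6, 41.2 and 46.8 in CX3CR1+ libraries (log2 fold change 2.89, adjusted p = 2.02e-05). Irf4 was higher by 1.64 and Bcl11a by 4.12, in the libraries with the higher B and plasma cell markers given above. The part of B and plasma cells in these values was not tested. Id2, which is needed for conventional dendritic cells, was lower (-1.81). Leaving out CX3CR1- replicate 3, CX3CR1+ replicate 1 or CX3CR1+ replicate 3 brought the number of lower genes to 2.

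Known targets of the factors were read from lists in the same way. These lists were chosen with earlier results of these data known. All 8 targets of c-Maf were lower in CX3CR1- cells, as were 8.15% of all tested genes. The median of the list was -2.34. Adgre1, the F4/80 antigen, was lower by -3.14 on the log2 scale, C1qa of the complement C1q complex by -2.88 and the mannose receptor gene Mrc1 by -2.18. Il10, the gene of the anti-inflammatory cytokine, had values of 25.0, 68.0 and 27.9 against 560, 1287 and 1110, a log2 fold change of -4.64 chosen for mention after its value was seen.

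Of 14 targets of PU.1, 8 were lower and 0 higher, against 8.15% and 12.2% of all tested genes. The median of the list was -1.24. Csf1r, the receptor for the macrophage growth factor, had a log2 fold change of -2.42, Csf3r, the receptor for G-CSF, of -3.98 and Cybb, the NADPH oxidase subunit, of -2.23. The integrin gene Itgam was at -0.15 (adjusted p = 0.668). Csf2ra, the GM-CSF receptor gene, was at 0.61 (adjusted p = 0.0328), under the fold limit. Both were chosen for mention after their values were seen.

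Of 9 targets of the C/EBP factors, 4 were lower and 1 was higher, against 8.15% and 12.2% of all tested genes. The median of the list was -0.54. Tnf (-2.86), Ptgs2 (-2.55) and the scavenger receptor gene Msr1 (-4.06) were lower, and Il6 was higher (3.31, at 229 ± 96.5 against 21.96 ± 8.74, SD, n = 3). Lyz2, the lysozyme of myeloid cells, was not called (-0.54, adjusted p = 0.0656).

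Targets of LXR were split, with 5 lower and 4 higher of 13 tested, against 8.15% and 12.2% of all tested genes. The median of the list was 0.50. Apoe, which carries lipid out of the cell, had values of 3004, 2747 and 4629 in CX3CR1- libraries and 30822, 32197 and 27005 in CX3CR1+ libraries (log2 fold change -3.15). Arl4c (-2.93) and the phagocytic receptor gene Mertk (-2.51) were lower, as was the cholesterol exporter gene Abca1 (-2.46). Scd1, which desaturates fatty acids, was higher (3.43), as were the lipoprotein lipase gene Lpl (3.10) and Smpdl3a (2.22). The lists overlap with the macrophage markers in Csf1r, Adgre1, Cd68, Mertk, Fcgr1 and C1qa.

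**Figure D4:**
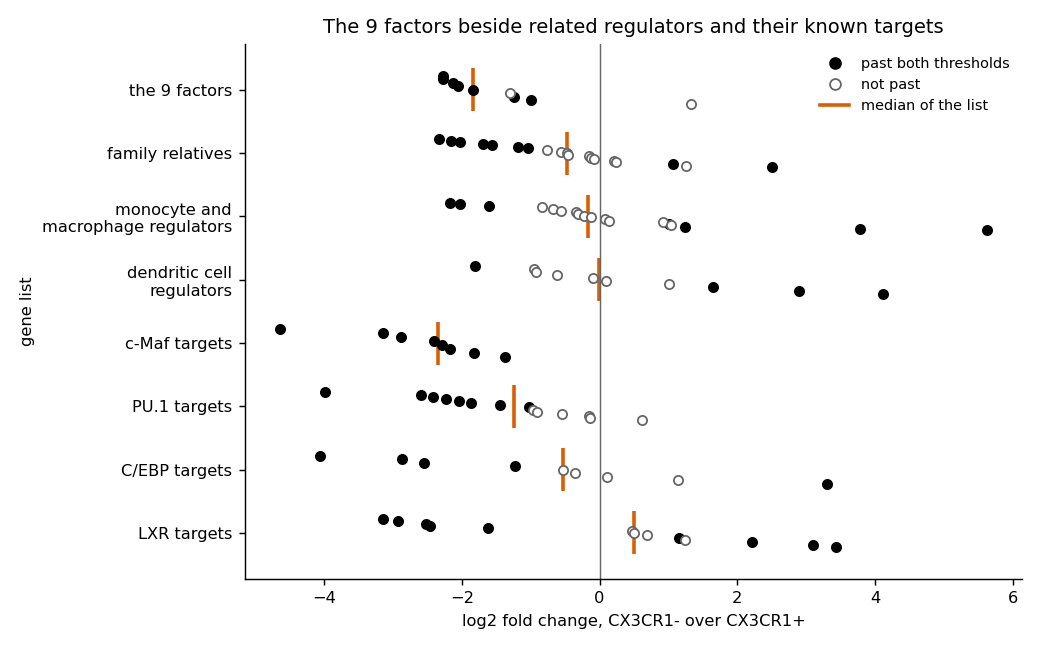
Log2 fold change of CX3CR1- over CX3CR1+ cells for each tested gene of the 9 factors, their relatives, other regulators and known targets. Filled points passed both thresholds, open points did not, and vertical bars are list medians. The median is -1.84 for the 9 factors, -2.34 for c-Maf targets, -1.24 for PU.1 targets and 0.50 for LXR targets. The estimate for Gata6, the rightmost point, depends on the pseudocount because its CX3CR1+ values are at or under 3 reads.

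The genes whose profiles over the 6 libraries came closest to those of the called factors, by Euclidean distance of centred log2 values, were mostly of unrelated families. Lamp2, a lysosomal membrane protein gene, lay nearest to Spi1 (distance 0.128), followed by Zbed4 (0.135). Rap2b (0.171) and Galc (0.174) lay nearest to Runx1, Rad51b (0.234) and Cdk6 (0.241) to Mef2c, and Amz2 (0.304) and Gm12580 (0.309) to Maf. For Cebpa they were AC122367.2 (0.259) and Fam228b (0.309), and for Zeb2 they were Gm43773 (0.198) and Gm38357 (0.218). Cebpb had Gm26626 (0.263), which overlaps Runx1 on the opposite strand, and Gm38001 (0.273). AC122367.2, Fam228b and Gm12580 had CX3CR1- means of 6.25, 5.67 and 9.44, where 3 reads correspond to 2.99 to 5.36. With 6 libraries in 2 groups, a short distance largely reflects a like difference between the groups and does not show shared regulation.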

How the data were processed

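Reads were pseudoaligned by the authors with Kallisto to the mouse transcriptome (mm10, GENCODE M16), imported with tximport, summed per gene and normalized with DESeq2. The authors deposited this normalized signal, which holds no read counts, as 42.5 to 44.7% of the values above 0 were whole multiples (within 0.01) of the smallest step of their library. That step gave the approximate reads. Libraries were grouped by sample title, in the order of their library numbers.

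Genes with a mean of at least 10 were tested with limma 3.58.1 in R 4.3.3 (eBayes with trend) on log2(value + 1). Tests were two-sided and p-values were adjusted by Benjamini-Hochberg over all tested genes. Ratios of each member to a relative (8 in all, 1 not reported here) were compared with exact two-sided permutation tests in SciPy 1.17.1. Gene positions, lengths and shared 31-mers came from GENCODE M21 for GRCm38. The members and lists were chosen with earlier results of these data known. Named are the members, their ratio partners, up to 3 called genes per list and direction with the smallest adjusted p, the 2 nearest profiles per called member and markers. Others are marked or stand as values of genes not called. Alternatives were pseudocounts of 0.5 and 10, other filters, scalings, variance priors, library weights and thresholds, a block, and each library left out. Plots were drawn with matplotlib 3.10.9.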

Additional observations from a re-analysis of the deposited data

How the results depend on the processing

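Of the 9 factors, 5 to 7 were called lower over 17 alternatives, with 5 under quantile normalization and 6 or 7 when 1 library was left out. One (Nr1h3) was called higher without an intensity trend, and Zeb2 missed the fold limit at -0.97 with library weights. Leaving out 1 library gave 1 to 3 relatives called higher, 1 to 2 dendritic cell regulators called lower, a log2 difference of -0.28 to 0.69 for Cebpa to Cebpb and -0.64 to 1.25 for Tfec to Mitf. Without a fold threshold, 3 dendritic cell regulators were called lower and 1 PU.1 target (Csf2ra) higher. A mean of at least 50 left fewer genes tested, without Nr1h3. Among those, macrophage regulators called higher numbered 2 and all genes called higher 1232 (2177 before). Without a filter, 2 C/EBP targets were higher (Il6 and Nos2). Leukocyte scaling left 957 genes called lower (1451 before). The Spi1 to Spib difference was -3.20 at a pseudocount of 10.

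Library numbers fall into adjacent pairs, and deviations within the pairs correlated by 0.104, 0.0380 and 0.0142. The adjacent CX3CR1+ library correlated best with CX3CR1- replicates 1 and 2, but not with CX3CR1- replicate 3. With correlations this low, the numbers were not taken as a pairing, though a shared sort was not excluded. A replicate block on them left 7 factors lower and 0 higher. Nr1h3 rested on about 4 to 17 reads in a library, and the part of depth in its missing call was not tested.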
